A study of Micropterus salmoides with 18 samples.

Results

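The gonads compared here held testis transcripts and came from largemouth bass (Micropterus salmoides), a freshwater fish that is farmed. The comparison was between day 0 and 28 days at 28 °C. The comparison used 6 of the series' 18 libraries. Of these, 3 were labelled IC-F (taken when the experiment began) and 3 were labelled HT-F (taken after 28 days in tanks that had been warmed to 28 °C within 2 h). A further 3 libraries, labelled NC-M (28 days in control tanks at 20 °C), also held testis transcripts and are set beside them, because IC-F and HT-F differ both in time and in temperature. The labels give the tissue as gonad and name no strain, genotype or age, nor the water temperature at day 0. The labels describe 216 fish in 12 tanks of 18, with the sexes apart and 3 tanks per group, and 0.4 ug of total RNA per library. Whether a group's libraries stand for 3 fish, 3 pools or 3 tanks is not labelled. The p-values below therefore refer to the spread among libraries, part of which may be technical.

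A fish testis makes sperm in cysts of germ cells that divide, pass through meiosis and then build a flagellum, each cyst wrapped by Sertoli cells. Leydig cells between the cysts make androgens and Insl3. In seasonal breeders such as bass, the mixture of these stages changes through the year, and temperature is one of the cues. Each library is a bulk extract, in which fewer cells of a type and less RNA per cell cannot be told apart.

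The letter in IC-F and HT-F went against the gonad genes, if F stands for female. The Sertoli and germ cell transcription factor gene dmrt1, a marker of male gonads, stood at 46.2, 41.7 and 47.1 FPKM (fragments per kilobase of gene, scaled to the mapped fragments of each library) in IC-F and at 80.9, 106 and 112 FPKM in HT-F. The sperm tail gene odf3b stood at 1420.3, 1401 and 1388 FPKM in IC-F and at 324, 371 and 328 FPKM in HT-F. The egg gene zar1 was near the floor in all 6, at 1.62 to 4.04 FPKM in IC-F and 1.81 to 3.89 FPKM in HT-F. Of the other oocyte markers, gdf9, bmp15, btg4 and zar1l stayed at or below 2.89 FPKM in all 6 libraries, and the granulosa cell marker foxl2a at or below 0.37 FPKM. The egg coat gene zpd stood at 2.06 to 5.22 FPKM in them. The markers well above the floor were org, at 143, 115 and 137 FPKM in IC-F and 124, 144 and 100.4 FPKM in HT-F, and the oocyte transcription factor gene figla, at 32.4, 29.1 and 27.7 FPKM and 43.2, 20.8 and 24.0 FPKM. Together they made up most of the 8 oocyte markers' sum of 151.5 to 180.3 FPKM in IC-F and 130.5 to 178.4 FPKM in HT-F. Groups are called by their labels throughout, and every direction refers to the libraries as labelled.

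The depth of the libraries is unknown, since the table holds FPKM and no counts. The summed FPKM of a library lay between 745181 and 865667 in IC-F and HT-F. Log2 values correlated across the 43106 entries at 0.983 to 0.984 within IC-F and at 0.958 to 0.980 within HT-F. NC-M 1 and 2 correlated at 0.945, but at 0.903 and 0.908 with NC-M 3, which correlated at 0.949 to 0.957 with the HT-F libraries. Each test against NC-M is therefore given with and without NC-M 3. HT-F 1 held more transcripts of liver than the others. The liver fatty acid binding protein gene fabp10a stood at 26.1 FPKM in HT-F 1 and at or below 2.09 FPKM in the other 8 testis-type libraries, and apoa2, an apolipoprotein of liver, stood at 32.2 FPKM against at most 1.81 FPKM. The 3 liver markers summed to 40.3 FPKM in HT-F 1 and to 2.0 to 4.1 FPKM elsewhere. Their part in the results below was not tested. Counts without HT-F 1 are given for every list in which the calls in one direction changed by 5 or more.

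About 1 in 2 tested genes passed in HT-F against IC-F. Of 21100 tested genes, 10617 passed (limma adjusted p under 0.05 on log2(FPKM + 1)), which is 50.3% of them. HT-F was higher in 5976 genes (28.3%) and lower in 4641 (22.0%). With a change of at least 1 on the log2 scale, 1678 were higher and 2046 lower. The median tested gene changed by log2 0.097, and by log2 0.0019 after median-of-ratios scaling, which takes the typical gene as unchanged. With that scaling 4981 genes were higher and 5269 lower, so the majority direction over all genes depends on it. The number called was 6914 without IC-F 3 and 12357 without HT-F 1, and 5438 in a fit that also held NC-M. The counts of a gene list in HT-F against IC-F are to be read against 28.3% higher and 22.0% lower, and counts in the comparisons with NC-M against the shares of those comparisons, which are given where such counts are first used.

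**Figure D1:**
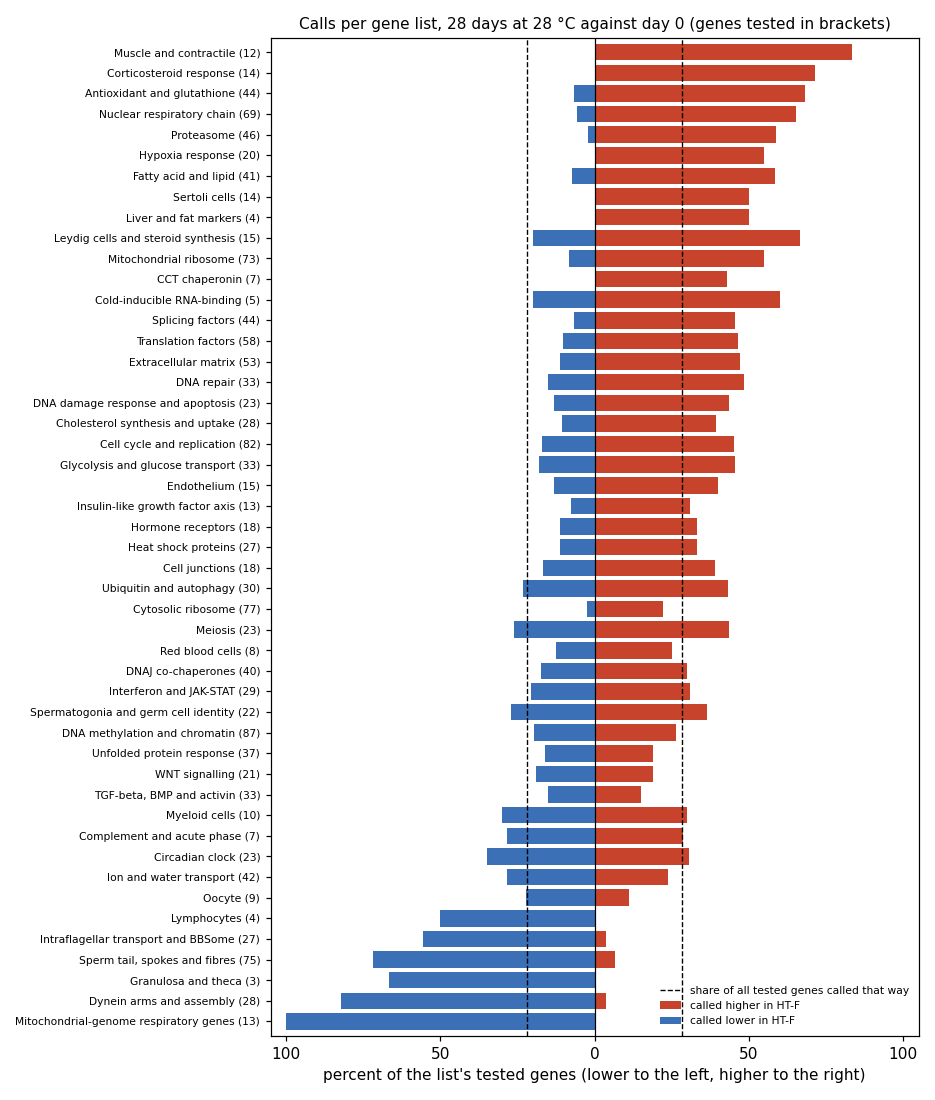
Share of the tested genes of each of 48 gene lists that were called higher (red, right) or lower (blue, left) in HT-F than in IC-F by limma, with the number of genes tested in brackets. The dashed lines mark the shares over all tested genes, 28.3% higher and 22.0% lower. The mitochondrial-genome genes and the sperm tail and dynein lists lie at the lower end, and the contractile and corticosteroid lists at the upper end.

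Most tested genes of the sperm flagellum were lower in HT-F than in IC-F. Of 75 tested genes for sperm tail structure, 54 fell and 5 rose, and the median gene changed by −0.83 on the log2 scale. Without HT-F 1, 59 fell and 5 rose. Of 28 genes for dynein arms, the motors of the flagellum, and their assembly, 23 fell and 1 rose (median log2 −0.77). Of 27 genes for intraflagellar transport and the BBSome, which carry cargo along the growing flagellum, 15 fell and 1 rose (median log2 −0.40). The 3 day-0 libraries were nearly alike and the 3 HT-F libraries lay below them for each of the genes that follow.

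Odf3b, which codes for an outer dense fibre protein, fell from the day-0 values given above (log2 −2.04 ± 0.078 SE, limma adjusted p = 6.95e-05). Rsph14, of the radial spoke head family, went from 631, 701 and 698 FPKM in IC-F to 290.1, 327 and 285 FPKM in HT-F (log2 −1.17 ± 0.085 SE, limma adjusted p = 0.000297). Its groups did not overlap. Cfap206, which codes for a protein at the base of the radial spokes, went from 143, 147 and 154 FPKM to 62.3, 61.5 and 57.8 FPKM (log2 −1.28 ± 0.067 SE, limma adjusted p = 0.000133). Cfap77, a protein inside the doublet microtubules, went from 525, 544 and 559 FPKM to 174, 202 and 158 FPKM (log2 −1.61 ± 0.10 SE, limma adjusted p = 0.000206). Spag6 of the central pair went from 102, 107 and 104.97 FPKM to 55.5, 34.2 and 34.1 FPKM (log2 −1.36 ± 0.19 SE, limma adjusted p = 0.00233), with HT-F 1 the highest of the HT-F libraries. Tekt1, a filament of the doublets, went from 311, 312 and 326 FPKM to 236, 187 and 172 FPKM (log2 −0.68 ± 0.12 SE, limma adjusted p = 0.0057). Cfap73, linked to the inner dynein arms, stood at 649, 565 and 595 FPKM and 551, 469 and 427 FPKM (log2 −0.33 ± 0.11 SE, limma adjusted p = 0.0522) and did not pass, although without HT-F 1 it did (log2 −0.43). Flagellar genes thus differed in how far they moved, from cfap73 to odf3b. The 6 markers of spermatids and sperm summed to 3233 to 3269 FPKM in IC-F and to 1307 to 1538 FPKM in HT-F, and 5 of them fell.

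The dynein heavy chain gene dnah9l went from 41.7, 46.4 and 47.9 FPKM in IC-F to 16.1, 11.8 and 15.0 FPKM in HT-F (log2 −1.61 ± 0.13 SE, limma adjusted p = 0.000385). The heavy chain gene dnah1 went from 104.5, 102 and 102 FPKM to 59.9, 66.8 and 60.7 FPKM (log2 −0.71 ± 0.07 SE, limma adjusted p = 0.000673). The intermediate chain gene dnai3 went from 58.7, 66.8 and 64.4 FPKM to 29.2, 23.4 and 21.2 FPKM (log2 −1.34 ± 0.13 SE, limma adjusted p = 0.000646). Both groups were tight and apart. Among transport genes, bbs2 of the BBSome went from 41.3, 47.2 and 44.5 FPKM to 19.4, 9.20 and 9.07 FPKM (log2 −1.82 ± 0.28 SE, limma adjusted p = 0.00319), with HT-F 1 about 2 times the other HT-F libraries. Ift80 of the transport complex went from 61.6, 55.6 and 58.8 FPKM to 40.05, 32.2 and 31.1 FPKM (log2 −0.76 ± 0.11 SE, limma adjusted p = 0.00273). Genes with chaperone names that belong to the same compartment fell with them. Hspb11, which despite its heat shock name is a subunit of the transport complex, went from 279, 296 and 303 FPKM to 128, 122 and 102 FPKM (log2 −1.32 ± 0.10 SE, limma adjusted p = 0.000319). Dnajb13 of the radial spokes went from 102.6, 102 and 103.2 FPKM to 52.3, 45.6 and 40.7 FPKM (log2 −1.14 ± 0.10 SE, limma adjusted p = 0.000492).

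Of the libraries kept 28 days at 20 °C, NC-M 1 and 2 lay below every HT-F library in the genes named above except odf3b, rsph14 and cfap77. The median sperm tail gene changed by log2 −1.82 in NC-M against IC-F, with 56 of 75 genes lower and 1 higher, where 18.1% of all 22791 genes tested were lower and 16.4% higher. Without NC-M 3, 62 were lower and 2 higher (median log2 −2.17), against 26.8% and 27.5% of 22407 tested genes. As log2(FPKM + 1), it stood at 5.91 to 5.96 in the IC-F libraries, 5.02 to 5.40 in HT-F, at 3.32 and 3.53 in NC-M 1 and 2, and at 5.25 in NC-M 3, which lay inside the range of HT-F. Of the sperm tail genes, 3 were higher in HT-F than in NC-M (6.17% of all tested genes were higher and 4.50% lower). Without NC-M 3, 55 were higher and 2 lower, against 28.6% and 19.2% of all tested genes. NC-M held odf3b at 439, 309 and 461 FPKM, overlapping HT-F (log2 −0.22, limma adjusted p = 0.395, or log2 −0.11, limma adjusted p = 0.559 without NC-M 3 in HT-F against NC-M). It held cfap77 at 192, 137 and 229.7 FPKM, which also overlapped HT-F (log2 −0.042, limma adjusted p = 0.897, or log2 0.12, limma adjusted p = 0.549 without NC-M 3). Rsph14 stood at 431, 478 and 345 FPKM in NC-M, above every HT-F library (log2 −0.46, limma adjusted p = 0.086, or log2 −0.59, limma adjusted p = 0.00267 without NC-M 3). In the fit that also held NC-M, the number of sperm tail genes called lower in HT-F than in IC-F was 12, that of dynein genes 4 and that of transport genes 3. Among others, the calls of tekt1, spag6, dnah3, dnai3, ift52, bbs9, hspb11 and dnajb13 ended there (limma adjusted p = 0.118 to 0.355).

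**Figure D2:**
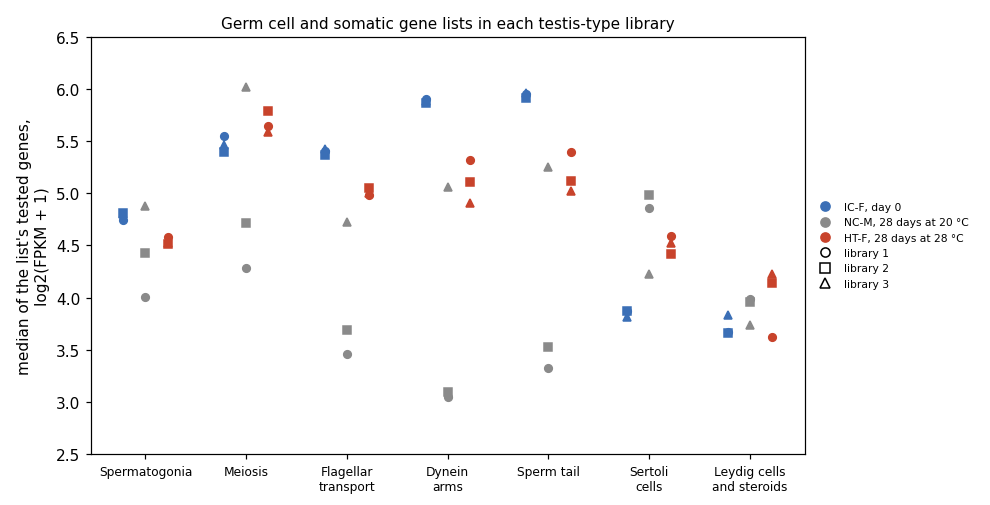
Median of the tested genes of 7 testis gene lists on the log2(FPKM + 1) scale in each of the 9 testis-type libraries (blue IC-F, grey NC-M, red HT-F, symbols for library 1, 2 and 3). The sperm tail, dynein and flagellar transport medians are highest in IC-F, lower in HT-F and lowest in NC-M 1 and 2, while NC-M 3 lies near HT-F. The Sertoli cell median runs the other way.

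Meiotic genes moved in both directions. Of 23 tested genes, 10 rose and 6 fell (median log2 0.22). Those that rose were sycp2, sycp3, hormad1, rec8b, smc1b, rec114, dmc1, meiob, mnd1 and msh5. Sycp3, a core protein of the synaptonemal complex, went from 183, 169.8 and 174 FPKM in IC-F to 458, 500.1 and 418 FPKM in HT-F (log2 1.38 ± 0.085 SE, limma adjusted p = 0.000194). The groups lay far apart. The meiotic cohesin gene rec8b went from 27.4, 21.8 and 28.7 FPKM to 90.4, 86.4 and 84.2 FPKM (log2 1.72 ± 0.11 SE, limma adjusted p = 0.000226). The meiotic recombinase gene dmc1 went from 63.5, 50.5 and 60.5 FPKM to 117, 145 and 123.04 FPKM (log2 1.13 ± 0.12 SE, limma adjusted p = 0.000914). Meiob, a single-strand binding protein of recombination, and mnd1, a partner of Dmc1, rose as well (log2 1.08 and log2 1.25). Spo11, which makes the breaks that start recombination, stood at 83.7, 71.3 and 84.1 FPKM and 84.1, 101 and 79.4 FPKM and did not pass (log2 0.14, limma adjusted p = 0.355).

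Those that fell were ccna1, mlh3, mei4, syce2, sycp1 and terb2. The germ line cyclin gene ccna1 went from 45.9, 50.4 and 52.0 FPKM to 15.5, 16.5 and 12.1 FPKM (log2 −1.69 ± 0.13 SE, limma adjusted p = 0.000315). Mlh3, which resolves crossovers, went from 64.5, 64.2 and 63.3 FPKM to 34.9, 33.2 and 31.6 FPKM (log2 −0.93 ± 0.069 SE, limma adjusted p = 0.000306). Mei4, which acts in the making of recombination breaks, syce2 of the synaptonemal complex and terb2, which ties chromosome ends to the nuclear envelope, changed by log2 −0.59 to −0.55. Ccnb2, a cyclin of the division phase from the oocyte list, went from 501, 529.8 and 528 FPKM to 270.2, 182 and 150.3 FPKM (log2 −1.41 ± 0.21 SE, limma adjusted p = 0.00267), and every HT-F library lay below every IC-F library. Sycp1, the crossbar of the synaptonemal complex, stood at 126, 106 and 129 FPKM and 106, 91.5 and 92.2 FPKM, a call at limma adjusted p = 0.0471 that ended without HT-F 2, HT-F 3, IC-F 1 or IC-F 3 (log2 −0.26 to −0.29). In NC-M, ccna1 stood at 1.88, 0.59 and 24.2 FPKM and ccnb2 at 16.1, 10.9 and 199 FPKM, so NC-M 1 and 2 were far below HT-F and NC-M 3 was within or above its range. The 7 meiotic markers summed to 735 to 839 FPKM in IC-F, 1222 to 1461 FPKM in HT-F and 391 to 1387 FPKM in NC-M. Without NC-M 3, 20 of the 23 meiotic genes were higher and 1 lower in HT-F than in NC-M, against 28.6% and 19.2% of all tested genes. With NC-M 3, 2 were higher and 1 lower, against 6.17% and 4.50%, a share near that of all genes. The calls of dmc1, meiob, mlh3, ccna1, ccnb2, sycp1, sycp2 and hormad1 in HT-F against IC-F ended in the fit that also held NC-M (limma adjusted p = 0.0859 to 0.755). That fit called 3 meiotic genes higher and 0 lower, so the calls in both directions rest on the fit without NC-M. Over all 22791 genes it tested, 3377 were higher and 2061 lower.

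Early germ cell genes were mixed too. Of 22 tested genes for spermatogonia and germ cell identity (29 in the table), 8 rose and 6 fell (median log2 0.067), and after median-of-ratios scaling 6 rose and 7 fell. In the fit that also held NC-M, 3 rose and 1 fell. Genes of the piRNA pathway, which silences transposons in germ cells, moved both ways. Piwil1, piwil2, asz1, mov10l1, tdrd7a and tdrd9 rose (log2 0.35 to 1.34), while tdrd1, tdrd5, tdrd6 and tdrd12 fell (log2 −0.62 to −0.29) and tdrd7b did not pass. Piwil1, which binds piRNAs, went from 130.1, 140.1 and 132 FPKM in IC-F to 291, 266 and 247 FPKM in HT-F (log2 0.99 ± 0.082 SE, limma adjusted p = 0.0004). Asz1, a scaffold of piRNA production, went from 44.2, 40.2 and 44.5 FPKM to 109, 118 and 104 FPKM (log2 1.34 ± 0.08 SE, limma adjusted p = 0.000181). The germ cell helicase gene ddx4 went from 196, 204 and 201 FPKM to 554, 289.9 and 303 FPKM (log2 0.86 ± 0.25 SE, limma adjusted p = 0.0277), with HT-F 1 nearly 2 times the other HT-F libraries. Without HT-F 1 its change was log2 0.57, and its call ended after median-of-ratios scaling (log2 0.75) and without any 1 of the IC-F libraries (log2 0.85 to 0.88). The ddx4 call also ended in the fit that held NC-M (limma adjusted p = 0.110). The stem cell gene zbtb16b went the other way, from 8.40, 7.13 and 7.69 FPKM to 3.04, 1.74 and 1.91 FPKM (log2 −1.46 ± 0.18 SE, limma adjusted p = 0.00136). Nanos2, a marker of undifferentiated spermatogonia, stayed at or below 1.95 FPKM in all 6 libraries.

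Several genes of Sertoli cells, which nurse the germ cells, rose. Of 14 tested genes (17 in the table), 7 rose and 0 fell by limma (8 and 0 at an unadjusted p under 0.05), and the median gene changed by log2 0.60. Dmrt1 rose from the values given above (log2 1.11 ± 0.13 SE, limma adjusted p = 0.00133). The follicle-stimulating hormone receptor gene fshr went from 12.7, 13.1 and 12.5 FPKM in IC-F to 34.4, 26.6 and 44.1 FPKM in HT-F (log2 1.36 ± 0.18 SE, limma adjusted p = 0.00177). The transcription factor gene wt1b went from 15.1, 14.6 and 14.3 FPKM to 46.7, 33.1 and 42.6 FPKM (log2 1.40 ± 0.13 SE, limma adjusted p = 0.000633). Neither gene's groups overlapped. Gata4, which drives Sertoli cell genes, rose as well (log2 0.94 ± 0.12 SE, limma adjusted p = 0.00181). Amh, the anti-Müllerian hormone gene, stood at 22.6, 23.03 and 25.1 FPKM and 21.8, 21.2 and 18.8 FPKM and did not pass (log2 −0.19, limma adjusted p = 0.128), although after median-of-ratios scaling it was called lower (log2 −0.30). Sox9a, called higher, was low at 0.48 to 2.51 FPKM, and it no longer passed without IC-F 2 or IC-F 3 (log2 0.79 and 0.67). It stayed under 1 FPKM in IC-F and reached the 1 FPKM in 3 libraries needed for testing only through HT-F. Its call is therefore no separate support. The sox9a call also ended in the fit that held NC-M (limma adjusted p = 0.187). At 20 °C, NC-M held dmrt1 at 63.0, 54.2 and 58.3 FPKM, below every HT-F library (log2 0.74, limma adjusted p = 0.0313, or log2 0.74, limma adjusted p = 0.00613 without NC-M 3). NC-M held fshr at 37.5, 27.7 and 20.2 FPKM and wt1b at 87.3, 119 and 32.2 FPKM, both overlapping HT-F. Of the 14 genes, dmrt1 alone was higher in HT-F than in NC-M, where 6.17% of all tested genes were higher. Without NC-M 3, dmrt1 was higher and 6 genes were lower, against 28.6% and 19.2% of all tested genes.

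Genes for steroid production rose more often than they fell. Of 15 tested genes for Leydig cells and steroid synthesis, 10 rose and 3 fell (median log2 0.54), and 6 rose without HT-F 2 or without HT-F 3. The 10 include hsd20b2, at 0.99, 0.71 and 0.70 FPKM in IC-F and 5.05, 5.19 and 4.02 FPKM in HT-F. It entered the test only through HT-F, where it is high, so its call is no separate support. Insl3, a peptide hormone of Leydig cells, went from 45.7, 37.6 and 37.9 FPKM in IC-F to 72.1, 117 and 128 FPKM in HT-F (log2 1.33 ± 0.22 SE, limma adjusted p = 0.00423), with HT-F 1 the lowest of its group but above all of IC-F. NC-M held 42.6, 40.8 and 66.5 FPKM, below all 3 HT-F libraries (log2 1.06, limma adjusted p = 0.0437, or log2 1.28, limma adjusted p = 0.00369 without NC-M 3). Star, which brings cholesterol into mitochondria, went from 19.7, 24.6 and 19.6 FPKM to 30.5, 31.2 and 32.2 FPKM (log2 0.54 ± 0.11 SE, limma adjusted p = 0.00771). The testosterone enzyme gene hsd17b3 was low but rose from 1.28, 1.06 and 1.15 FPKM to 2.87, 4.80 and 5.48 FPKM (log2 1.28 ± 0.21 SE, limma adjusted p = 0.00413). Tspo, a mitochondrial membrane protein, fell from 243, 218 and 224 FPKM to 147, 139 and 126 FPKM (log2 −0.73 ± 0.084 SE, limma adjusted p = 0.00116). The calls of star and tspo ended in the fit that also held NC-M (limma adjusted p = 0.333 and 0.179). The 4 Leydig cell markers in the table did not move together. Insl3 and star rose and lhcgr, described below, fell. Hsd3b1, a steroid enzyme gene, stood at 17.0, 17.2 and 16.2 FPKM in IC-F and 11.3, 28.8 and 17.8 FPKM in HT-F. Its groups overlapped and it did not pass (log2 0.096, limma adjusted p = 0.81).

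Among the 18 hormone receptor genes tested, 6 rose and 2 fell, with 3 higher without HT-F 2 or any 1 of the IC-F libraries. Fshr, described above, was among those that rose. The luteinising hormone receptor gene lhcgr went from 4.27, 3.52 and 3.29 FPKM to 2.02, 2.04 and 2.39 FPKM (log2 −0.57 ± 0.13 SE, limma adjusted p = 0.0143), a call that ended without IC-F 1 (log2 −0.49). The lhcgr call also ended in the fit that held NC-M (limma adjusted p = 0.191). At 20 °C lhcgr stood higher, at 8.75, 19.1 and 7.83 FPKM in NC-M (log2 −1.93, limma adjusted p = 0.0171, or log2 −2.15, limma adjusted p = 0.00089 without NC-M 3 in HT-F against NC-M). The progesterone receptor gene pgr was also highest at 20 °C, with 37.6, 30.6 and 34.9 FPKM in IC-F, 49.2, 61.2 and 74.3 FPKM in HT-F (log2 0.81 ± 0.16 SE, limma adjusted p = 0.00811) and 102.9, 134 and 71.8 FPKM in NC-M. Its HT-F and NC-M libraries overlapped (log2 −0.71, limma adjusted p = 0.0834, or log2 −0.94, limma adjusted p = 0.00616 without NC-M 3).

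Genes named for the ovary gave few calls. Of 9 tested oocyte genes, 1 rose and 2 fell, and of 3 granulosa and theca genes, lhcgr and wnt4 fell. The oocyte genes that passed were ccnb2, described above, mos, a kinase that holds eggs in meiosis, and sox3, a transcription factor gene. Sox3 went from 0.82, 0.80 and 0.45 FPKM in IC-F to 1.31, 1.72 and 2.59 FPKM in HT-F (log2 0.75 ± 0.21 SE, limma adjusted p = 0.0251), and NC-M lay higher at 2.18, 3.73 and 2.30 FPKM. Sox3 stayed under 1 FPKM in IC-F and entered the test only through HT-F, so its p-value is no separate support. Its call and that of mos ended in the fit that also held NC-M (limma adjusted p = 0.0544 and 0.166), with the replicate block (limma adjusted p = 0.0688 and 0.0663) and without any 1 of the IC-F libraries (limma adjusted p = 0.0593 to 0.0918 and 0.0873 to 0.113). The mos call also ended without HT-F 1 or HT-F 3 and with no filter on low values (limma adjusted p = 0.0524 to 0.0915).

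Transcripts of the mitochondrial genome had the largest median change of the 48 lists. All 13 protein-coding genes of that genome, which code for subunits of the respiratory chain and of ATP synthase, were lower in HT-F than in IC-F (13 of 13 called, median log2 −2.80, with ND1 counted although it was listed at 0 in HT-F). Together they made up 8.38 to 10.1% of the summed FPKM in IC-F, 1.48 to 2.05% in HT-F and 12.8 to 17.9% in NC-M. The 3 groups did not overlap. The 20 °C libraries thus lay above day 0 and the 28 °C libraries below it.

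COX2, a subunit of cytochrome oxidase, went from 18196, 23974 and 22317 FPKM in IC-F to 1484, 1256 and 831 FPKM in HT-F (log2 −4.20 ± 0.23 SE, limma adjusted p = 0.000148), with 35110.3, 34777 and 38676 FPKM in NC-M. COX1 of the same enzyme went from 13384, 16233 and 15227 FPKM to 2048, 3084 and 2268 FPKM (log2 −2.62 ± 0.18 SE, limma adjusted p = 0.000233), a smaller change. The complex I gene ND3 went from 1139, 1492 and 1263 FPKM to 96.8, 124 and 111 FPKM (log2 −3.54 ± 0.13 SE, limma adjusted p = 6.95e-05), and ND2, ND4, ND4L, ND5 and ND6 changed by log2 −3.27 to −2.75. At the other end was CYTB of complex III, from 5012, 6596 and 5855 FPKM to 1322, 2189 and 1563 FPKM (log2 −1.81 ± 0.21 SE, limma adjusted p = 0.00112). The ATP synthase gene ATP8 went from 9048, 10803 and 10201 FPKM to 2506, 3264 and 2285 FPKM (log2 −1.91 ± 0.16 SE, limma adjusted p = 0.000406). The genes therefore fell by unequal amounts, although they belong to a single small genome. ND1 was listed at 209.5, 361 and 392 FPKM in IC-F, at 0 in all 3 HT-F libraries and in NC-M 1 and 2, and at 709 FPKM in NC-M 3. A listed 0 for so abundant a gene can be a failed estimate, so no fold is given for it.

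Against NC-M, 12 of the 13 genes were lower in HT-F, with a median of log2 −3.49, and without NC-M 3 also 12 (median log2 −3.35), where 4.50% and 19.2% of all tested genes were lower. In NC-M against IC-F, 5 were higher (median log2 0.70), and without NC-M 3, 9 were higher and 1 lower (median log2 0.55), where 16.4% and 27.5% of all tested genes were higher. The 1 called lower was ND1, listed at 0 in NC-M 1 and 2. Leaving out HT-F 1, 2 or 3 kept 13 called, and leaving out any IC-F library left 12. In the latter fits ND1 no longer reached 1 FPKM in 3 libraries and was not tested. The highest entry of the table in all IC-F and HT-F libraries was MSTRG.2495, which the files pair with no gene name. It also fell, from 70835, 86865 and 78733 FPKM in IC-F to 12729, 14817 and 15154 FPKM in HT-F. In NC-M it differed from the mitochondrial genes. It stood there at 53785, 54557 and 13922 FPKM, below every IC-F library, with NC-M 3 inside the range of HT-F.

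**Figure D3:**
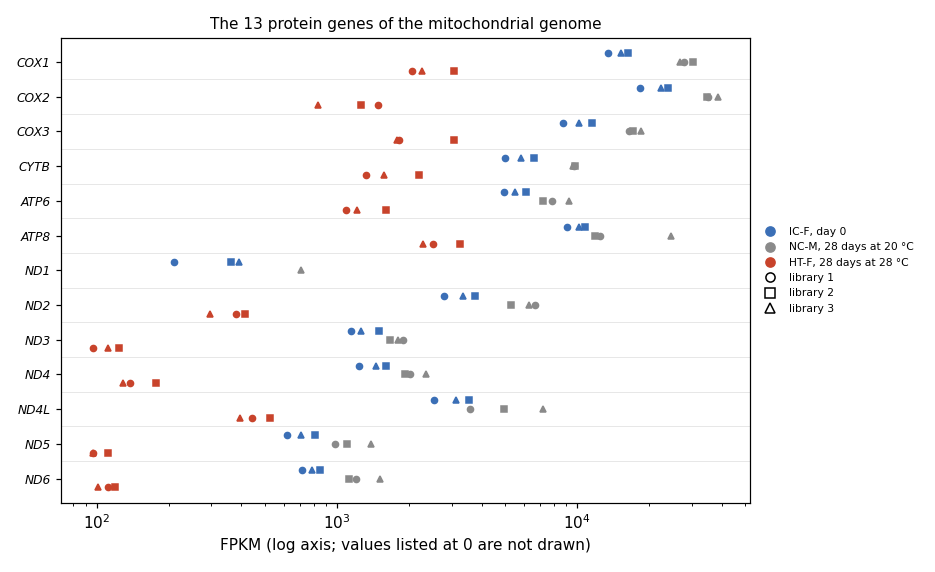
FPKM (log axis) of the 13 protein genes of the mitochondrial genome in each testis-type library (blue IC-F, grey NC-M, red HT-F, symbols for library 1, 2 and 3). For each gene the 3 HT-F libraries lie below the 3 IC-F libraries, as for COX2 at 831 to 1484 FPKM against 18196 to 23974 FPKM. ND1 is listed at 0 in all HT-F libraries and is not drawn there.

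Nuclear genes for the same machinery were more often higher than lower. Of 69 tested respiratory chain genes of the nuclear genome, 45 were higher and 4 lower in HT-F (median log2 0.55), and of 73 genes of the mitochondrial ribosome 40 were higher and 6 lower (median log2 0.33). Without HT-F 1, 45 and 7 respiratory chain genes and 45 and 8 ribosome genes were higher and lower. The ATP synthase alpha subunit gene atp5fa1 went from 48.9, 50.3 and 46.1 FPKM in IC-F to 111, 110.2 and 113 FPKM in HT-F (log2 1.19 ± 0.065 SE, limma adjusted p = 0.000143). NC-M lay between, at 73.5, 80.6 and 82.3 FPKM (log2 0.50, limma adjusted p = 0.0357, or log2 0.53, limma adjusted p = 0.00179 without NC-M 3). Ndufab1b, an acyl carrier subunit of complex I, went from 216, 201 and 211 FPKM to 429, 482 and 437 FPKM (log2 1.098 ± 0.074 SE, limma adjusted p = 0.000232). Mrps33 of the small ribosomal subunit went from 17.6, 16.6 and 14.9 FPKM to 36.5, 39.9 and 34.4 FPKM (log2 1.13 ± 0.10 SE, limma adjusted p = 0.000461). Mrpl9 of the large subunit was an exception and fell from 90.4, 85.6 and 95.7 FPKM to 43.1, 36.1 and 38.5 FPKM (log2 −1.19 ± 0.09 SE, limma adjusted p = 0.000322). With library sums set equal after leaving out the mitochondrial genes and MSTRG.2495, an alternative chosen after the data were seen, 39 respiratory genes were higher and 8 lower.

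Genes that use fuel and remove its by-products were more often higher than lower. Of 44 antioxidant and glutathione genes, 30 rose and 3 fell (median log2 0.56). Catalase, cat, went from 32.0, 29.9 and 32.7 FPKM in IC-F to 107, 119 and 141 FPKM in HT-F (log2 1.91 ± 0.11 SE, limma adjusted p = 0.000178), and NC-M lay between at 40.9, 45.6 and 64.6 FPKM (log2 1.28, limma adjusted p = 0.0163, or log2 1.47, limma adjusted p = 0.000146 without NC-M 3). The mitochondrial superoxide dismutase gene sod2 went from 78.2, 80.8 and 78.9 FPKM to 178, 197 and 204 FPKM (log2 1.27 ± 0.074 SE, limma adjusted p = 0.000171). Its NC-M libraries, at 92.0, 93.4 and 153 FPKM, were all below HT-F (log2 0.81, limma adjusted p = 0.0443, or log2 1.05, limma adjusted p = 0.000109 without NC-M 3). The peroxiredoxin gene prdx2 was about as high in NC-M, with 177, 192 and 189 FPKM in IC-F, 390.0, 411 and 396 FPKM in HT-F (log2 1.097 ± 0.065 SE, limma adjusted p = 0.000174) and 399, 344 and 314 FPKM in NC-M. Of 41 fatty acid and lipid genes, 24 rose and 3 fell (median log2 0.57), with 16 higher without IC-F 2 or IC-F 3. The adipocyte marker fabp4a, a fatty acid carrier of fat cells, was among them, at 353, 335 and 357 FPKM in IC-F and 554, 821 and 649 FPKM in HT-F (log2 0.93 ± 0.15 SE, limma adjusted p = 0.00326), but lpl, the other adipocyte marker in the table, was not. Hadhb, an enzyme of fatty acid oxidation in mitochondria, went from 53.2, 48.8 and 49.1 FPKM to 94.3, 101 and 116 FPKM (log2 1.02 ± 0.10 SE, limma adjusted p = 0.000584). Of 33 genes for glycolysis and glucose transport, 15 rose and 6 fell (median log2 0.56), or 18 and 8 without HT-F 1. The enolase gene eno1a went from 329, 361 and 342 FPKM to 734, 665 and 873 FPKM (log2 1.13 ± 0.11 SE, limma adjusted p = 0.000709) and stood at 1209.5, 862 and 578 FPKM in NC-M. Of 28 genes for cholesterol synthesis and uptake, 11 rose and 3 fell. Insig1, which holds back sterol synthesis, went from 2.26, 2.43 and 2.00 FPKM to 13.1, 17.8 and 26.2 FPKM (log2 2.59 ± 0.24 SE, limma adjusted p = 0.000575), while lss and nsdhl, enzymes of the sterol pathway, fell (log2 −0.85 and −0.82).

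The median change over the heat shock list was small. The list holds constitutive genes and hspb11, described above, as well as inducible genes. Of 27 tested heat shock genes, 9 were higher (33.3%) and 3 lower (11.1%), with a median change of log2 0.12. As log2(FPKM + 1), the list's median stood at 4.31 to 4.52 in IC-F, 5.21 to 5.30 in HT-F and 4.31 to 4.80 in NC-M. Hsp90aa1.2, an inducible HSP90 gene, went from 70.3, 70.0 and 71.1 FPKM in IC-F to 176, 192 and 163 FPKM in HT-F (log2 1.31 ± 0.079 SE, limma adjusted p = 0.00018). NC-M 1 and 2 lay far below both groups and NC-M 3 between them, at 23.6, 30.1 and 124 FPKM, and the call ended in the fit that also held NC-M (limma adjusted p = 0.102). The small heat shock gene hspb6, of smooth and heart muscle, went from 16.3, 16.4 and 19.2 FPKM to 65, 121 and 135 FPKM (log2 2.498 ± 0.27 SE, limma adjusted p = 0.000952), with HT-F 1 lowest, and stood at 66.9, 49.7 and 57.6 FPKM in NC-M. Hspb6 did not pass in HT-F against NC-M (log2 0.81, limma adjusted p = 0.0747, or log2 0.81, limma adjusted p = 0.0600 without NC-M 3). The constitutive HSP70 gene hspa8b stood at 44.7, 45.7 and 46.0 FPKM and 38.3, 42.1 and 36.1 FPKM (log2 −0.23, limma adjusted p = 0.0553). The HSP60 gene hspd1, at 61.0, 66.2 and 66.2 FPKM and 93.6, 65.1 and 73.4 FPKM (log2 0.24, limma adjusted p = 0.186), and the heat shock factor gene hsf1, at 53.4, 53.9 and 52.0 FPKM and 62.0, 56.4 and 51.5 FPKM (log2 0.087, limma adjusted p = 0.429), did not pass and their groups overlapped. The genes hspa8b, hspd1 and hsf1 were picked after their values were seen. The inducible HSP70 gene hspa1b was too low to be tested, at 0.34 to 0.59 FPKM in IC-F and 0.62, 2.19 and 3.93 FPKM in HT-F.

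Among the partners of HSP70, 12 of 40 DNAJ genes rose and 7 fell (6 to 13 higher with a library left out, the fewest without IC-F 2 or IC-F 3). Of 7 genes of the CCT chaperonin, which folds tubulin and actin, 3 rose and 0 fell by limma (4 and 0 at an unadjusted p under 0.05). Cct8 was among them, from 80.0, 80.5 and 77.2 FPKM to 156, 135 and 143 FPKM (log2 0.86 ± 0.075 SE, limma adjusted p = 0.000491). Of 37 genes of the unfolded protein response, 7 rose and 6 fell, while 3 rose and 6 fell after median-of-ratios scaling, and 3 rose without any 1 of the IC-F libraries. Xbp1, its transcription factor, went from 64.6, 73.1 and 68.4 FPKM to 38.2, 30.2 and 30.04 FPKM (log2 −1.05 ± 0.11 SE, limma adjusted p = 0.000929), and hspa5, the chaperone of the endoplasmic reticulum, stood at 98.6, 98.1 and 98.9 FPKM and 113.9, 62.7 and 60.3 FPKM (log2 −0.38, limma adjusted p = 0.234). HT-F 1 was above IC-F and the other HT-F libraries below it.

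A cold-inducible RNA-binding protein gene was higher in the warm tanks. Cirbpb, a fish gene of the CIRP family, which in mammals is induced by mild cold, went from 913, 915 and 928 FPKM in IC-F to 2239, 2183 and 2013 FPKM in HT-F (log2 1.22 ± 0.074 SE, limma adjusted p = 0.000185). NC-M stood at 1173, 1204 and 1094 FPKM, just above IC-F and below every HT-F library (log2 0.89, limma adjusted p = 0.0207, or log2 0.85, limma adjusted p = 0.000247 without NC-M 3). The cold shock domain gene ybx1, an abundant mRNA packaging protein, fell from 2358, 2365 and 2419 FPKM to 1574, 962 and 1055 FPKM (log2 −1.03 ± 0.19 SE, limma adjusted p = 0.00569) and stood at 1437, 1113 and 1313 FPKM in NC-M, overlapping HT-F. Of the 5 tested genes of this list, 3 rose and 1 fell.

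Genes of protein breakdown rose more often than they fell. Of 46 proteasome genes, 27 rose, 1 fell and the other 18 did not pass (median log2 0.54), and 32 rose and 2 fell without HT-F 1. Psmd9, an assembly chaperone of the proteasome, went from 31.1, 28.5 and 29.9 FPKM in IC-F to 68.8, 73.7 and 70.3 FPKM in HT-F (log2 1.22 ± 0.07 SE, limma adjusted p = 0.000159). The core subunit gene psma5 went from 132, 122.7 and 128 FPKM to 245, 239 and 231 FPKM (log2 0.90 ± 0.063 SE, limma adjusted p = 0.000266). NC-M held psma5 at 78.0, 109.9 and 182 FPKM, below all HT-F libraries (log2 1.03, limma adjusted p = 0.0475, or log2 1.36, limma adjusted p = 0.000281 without NC-M 3). Of 30 genes for ubiquitin and autophagy, 13 rose and 7 fell (13 and 10 without HT-F 1), and the autophagy proteases atg4b and atg4c and the membrane protein gene atg9b were among the latter. Atg4c went from 106, 99.96 and 102.8 FPKM to 31.4, 27.3 and 28.7 FPKM (log2 −1.79 ± 0.076 SE, limma adjusted p = 7.84e-05). Map1lc3a, a coat protein of autophagosomes, went from 30.9, 28.0 and 30.7 FPKM to 53.5, 64.5 and 58.9 FPKM (log2 0.96 ± 0.093 SE, limma adjusted p = 0.000664) and stood at 27.0, 25.3 and 32.9 FPKM in NC-M (log2 1.03, limma adjusted p = 0.0127, or log2 1.14, limma adjusted p = 0.000195 without NC-M 3).

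In the median, genes for making protein and splicing mRNA moved less than those of the proteasome. Of 58 translation factor genes, 27 rose and 6 fell (median log2 0.23), with 18 higher without IC-F 3. Eif1axb, a start codon scanning factor, went from 97.7, 104 and 104 FPKM in IC-F to 193, 212 and 183 FPKM in HT-F (log2 0.94 ± 0.077 SE, limma adjusted p = 0.000394), and NC-M overlapped IC-F at 76.7, 75.6 and 122 FPKM (log2 1.13, limma adjusted p = 0.0215, or log2 1.35, limma adjusted p = 4.94e-05 without NC-M 3). Of 44 splicing factor genes, 20 rose and 3 fell (median log2 0.33, and 9 fell without HT-F 1). Of 77 cytosolic ribosome genes, 17 rose and 2 fell, and the median gene changed by only log2 0.13. The count of rises was 20 without HT-F 1 (with 5 falls), 9 without IC-F 1 and 7 without IC-F 3. The ribosome genes differed more from the 20 °C libraries. Rps9 of the small subunit stood at 775, 895 and 836 FPKM in IC-F, 1299.6, 1313 and 1232 FPKM in HT-F (log2 0.62 ± 0.081 SE, limma adjusted p = 0.00182) and 2762, 2536 and 1142 FPKM in NC-M. Without NC-M 3, 74 of the 77 were lower in HT-F than in NC-M (median log2 −1.07), against 19.2% of all tested genes, and with it 2 were lower, against 4.50%. The rps9 call ended in the fit that also held NC-M (limma adjusted p = 0.189).

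Most tested genes known to follow corticosteroids, the stress steroids of fish, were higher in HT-F. Of 14 tested genes (19 in the table), 10 rose and 0 fell by limma (10 and 0 at an unadjusted p under 0.05), with a median of log2 1.24. The HT-F libraries were unequal. As log2(FPKM + 1), the list's median stood at 3.61 to 3.81 in IC-F, at 4.75 in HT-F 1, at 6.07 and 6.28 in HT-F 2 and 3, and at 3.49 to 4.36 in NC-M. Without HT-F 1, 12 rose, with a median of log2 1.53. In NC-M against IC-F, 1 of 15 tested genes was higher and 1 lower (median log2 −0.11), and likewise without NC-M 3 (median log2 −0.22). In HT-F against NC-M, 10 of 15 tested genes were higher, against 6.17% of all tested genes, and without NC-M 3 also 10, against 28.6%.

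Dusp1, a phosphatase that ends MAP kinase signals, went from 6.22, 5.93 and 7.43 FPKM in IC-F to 27.4, 80.5 and 85.6 FPKM in HT-F (log2 2.96 ± 0.43 SE, limma adjusted p = 0.00253). NC-M held 2.85, 2.62 and 6.87 FPKM (log2 3.61, limma adjusted p = 0.00979, or log2 3.97, limma adjusted p = 0.000425 without NC-M 3), so all HT-F libraries were above all others. The mTOR inhibitor gene ddit4 went from 23.5, 20.8 and 22.6 FPKM to 81.6, 218 and 269 FPKM (log2 2.87 ± 0.43 SE, limma adjusted p = 0.0028), with 13.2, 11.6 and 51.5 FPKM in NC-M. The transcription factor gene cebpb went from 7.24, 8.95 and 7.76 FPKM to 30.4, 102 and 104 FPKM (log2 2.96 ± 0.47 SE, limma adjusted p = 0.00347). HT-F 1 was the lowest of its group for each of these 3 genes, and it was still above every IC-F library. Tsc22d3, a glucocorticoid-induced leucine zipper, went from 14.6, 16.9 and 16.0 FPKM to 44.4, 84.1 and 87.6 FPKM (log2 2.06 ± 0.26 SE, limma adjusted p = 0.0016), with NC-M above IC-F at 41.4, 38.6 and 22.5 FPKM. Tsc22d3 did not pass in HT-F against NC-M (log2 1.04, limma adjusted p = 0.0615, or log2 0.77, limma adjusted p = 0.0520 without NC-M 3). G0s2, which blocks the breakdown of stored fat, went from 2.37, 4.05 and 3.48 FPKM to 24.4, 67.0 and 107 FPKM (log2 3.75 ± 0.52 SE, limma adjusted p = 0.00212). The chaperone gene fkbp5, which slows the glucocorticoid receptor, went from 26.3, 29.1 and 29.4 FPKM to 34.3, 65.2 and 81.3 FPKM (log2 0.98 ± 0.30 SE, limma adjusted p = 0.0355). The kinase gene sgk1 went from 16.0, 12.2 and 16.8 FPKM to 24.4, 42.4 and 53.6 FPKM (log2 1.301 ± 0.29 SE, limma adjusted p = 0.0118). The glucocorticoid receptor gene nr3c1 itself stood at 3.10, 3.20 and 3.06 FPKM and 3.46, 3.59 and 3.45 FPKM (log2 0.13, limma adjusted p = 0.345). The transcription factor gene klf9 stood at 11.2, 10.2 and 10.5 FPKM in IC-F, 8.49, 23.3 and 28.4 FPKM in HT-F (log2 0.70, limma adjusted p = 0.199) and 2.60, 2.76 and 4.92 FPKM in NC-M, so HT-F 1 lay below IC-F and the others above it. Cebpd, errfi1a and fkbp4 made up the rest of the 10, and per1b and crispld2 did not pass. Several of these genes were named after their values were seen, to account for the whole list.

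**Figure D4:**
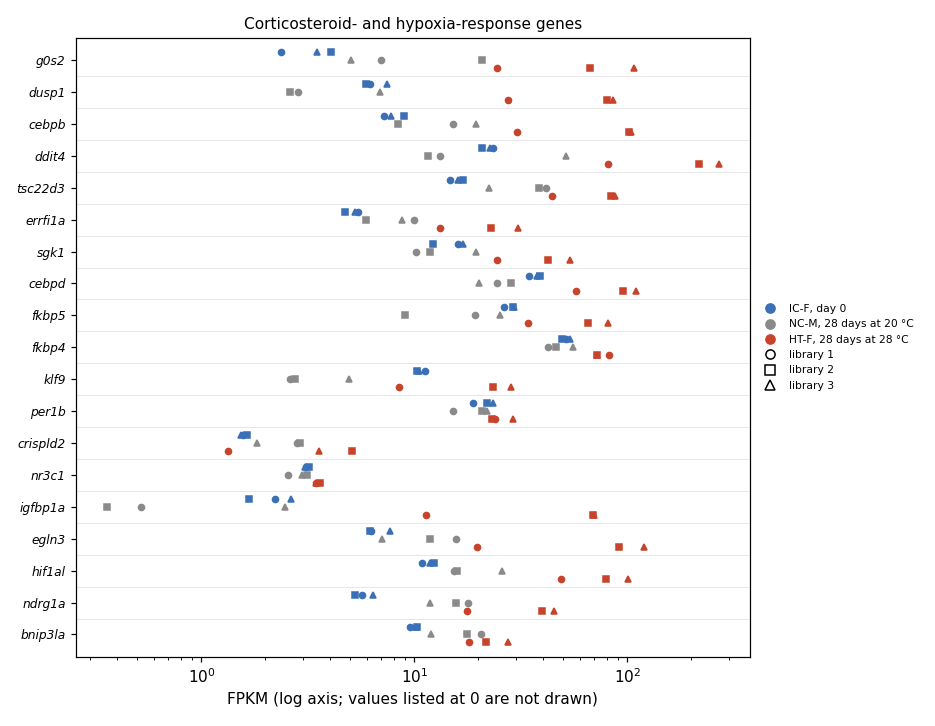
FPKM (log axis) of the 14 tested corticosteroid-response genes and 5 hypoxia-response genes in each testis-type library (blue IC-F, grey NC-M, red HT-F, symbols for library 1, 2 and 3). HT-F 2 and 3 lie to the right of IC-F in most rows and HT-F 1 (circle) between, as for ddit4 at 81.6 FPKM in HT-F 1 against 218 and 269 FPKM. NC-M departs from IC-F in both directions, above it for tsc22d3 and ndrg1a and below it for klf9.

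Genes known to follow low oxygen rose in part. Of 20 tested genes, 11 rose and 0 fell by limma (14 and 0 at an unadjusted p under 0.05), with a median of log2 0.67. Without HT-F 1, 16 rose and 1 fell (median log2 1.02). Egln3, an oxygen sensor that marks HIF for breakdown, went from 6.25, 6.20 and 7.69 FPKM in IC-F to 19.7, 91.8 and 120.4 FPKM in HT-F (log2 3.00 ± 0.64 SE, limma adjusted p = 0.0102), with 15.7, 11.9 and 7.04 FPKM in NC-M. Ndrg1a, a stress gene induced by hypoxia, went from 5.67, 5.28 and 6.39 FPKM to 17.7, 39.9 and 45.2 FPKM (log2 2.28 ± 0.34 SE, limma adjusted p = 0.00278) and stood at 17.9, 15.6 and 11.9 FPKM in NC-M. It did not pass in HT-F against NC-M (log2 1.04, limma adjusted p = 0.0686, or log2 0.89, limma adjusted p = 0.0758 without NC-M 3). Hif1al, of the HIF alpha family, went from 10.9, 12.4 and 11.8 FPKM to 48.8, 79.5 and 100.3 FPKM (log2 2.55 ± 0.25 SE, limma adjusted p = 0.0007), above NC-M at 15.3, 15.9 and 25.9 FPKM (log2 1.93, limma adjusted p = 0.0163, or log2 2.16, limma adjusted p = 0.000621 without NC-M 3). The growth factor gene vegfaa, which directs vessel growth, stood at 5.86, 5.87 and 6.39 FPKM and 6.94, 9.17 and 8.14 FPKM and did not pass (log2 0.36, limma adjusted p = 0.0505). Igfbp1a, a binding protein that holds back insulin-like growth factors, went from 2.22, 1.68 and 2.63 FPKM to 11.4, 68.7 and 69.8 FPKM (log2 3.64 ± 0.68 SE, limma adjusted p = 0.00626), against 0.52, 0.36 and 2.47 FPKM in NC-M (log2 4.35, limma adjusted p = 0.0173, or log2 4.77, limma adjusted p = 0.00144 without NC-M 3). Of the 13 tested genes of the growth factor axis, 4 rose and 1 fell. The 4 include igfbp2a, at 0.86, 0.68 and 0.84 FPKM in IC-F and 1.80, 2.67 and 2.61 FPKM in HT-F. It entered the test only through HT-F, so its call is no separate support. The receptor gene igf1ra fell from 6.6, 7.79 and 8.21 FPKM to 4.78, 3.06 and 4.85 FPKM (log2 −0.72 ± 0.18 SE, limma adjusted p = 0.0172), a call lost without IC-F 2 or IC-F 3 (log2 −0.70 and −0.66). The igf1ra call also ended in the fit that held NC-M (limma adjusted p = 0.0508).

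Clock genes moved both ways, with 7 of 23 higher and 8 lower, and the balance turned in several alternatives (9 and 7 without HT-F 1, 5 and 4 without HT-F 3). Bhlhe40, a repressor that answers to hypoxia and steroids as well as to the clock, went from 3.58, 3.72 and 3.86 FPKM in IC-F to 17.7, 65.7 and 89.7 FPKM in HT-F (log2 3.36 ± 0.56 SE, limma adjusted p = 0.00422), and NC-M stood at 8.16, 4.83 and 3.77 FPKM (log2 2.93, limma adjusted p = 0.0246, or log2 2.73, limma adjusted p = 0.00843 without NC-M 3). Nr1d2a, a REV-ERB repressor, went from 9.17, 9.66 and 10.4 FPKM to 20.0, 25.8 and 24.96 FPKM (log2 1.19 ± 0.12 SE, limma adjusted p = 0.000753). Rorca, an activator on the same sites, went from 3.02, 2.18 and 2.40 FPKM to 0.65, 0.36 and 0.25 FPKM (log2 −1.32 ± 0.17 SE, limma adjusted p = 0.00172). It stayed under 1 FPKM in HT-F and entered the test only through IC-F, so its p-value and its place among the 8 are no separate support. The hour of sampling is not given in the labels, and its part in these values was not tested.

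Most tested contractile genes rose. Of 12 tested genes (20 in the table), 10 rose and 0 fell by limma (10 and 0 at an unadjusted p under 0.05), with a median of log2 1.35. In HT-F against NC-M, 3 of the 12 were higher and 0 lower, against 6.17% and 4.50% of all tested genes. Without NC-M 3, 7 were higher and 0 lower, against 28.6% and 19.2%. The smooth muscle actin gene acta2 went from 226, 244 and 226 FPKM in IC-F to 395, 864 and 792 FPKM in HT-F (log2 1.48 ± 0.29 SE, limma adjusted p = 0.00774). The actin-binding gene tagln went from 429, 379.6 and 426 FPKM to 651, 1705 and 1277 FPKM (log2 1.45 ± 0.34 SE, limma adjusted p = 0.0137). The tagln call ended without IC-F 2 (log2 1.39). For both genes, HT-F 2 and 3 were high and HT-F 1 was between them and IC-F. NC-M held tagln at 618, 540 and 577 FPKM, and it did not pass in HT-F against NC-M (log2 0.96, limma adjusted p = 0.0758, or log2 0.96, limma adjusted p = 0.0584 without NC-M 3). Calponin, cnn1b, went from 6.02, 4.73 and 5.11 FPKM to 16.0, 20.4 and 19.2 FPKM (log2 1.63 ± 0.13 SE, limma adjusted p = 0.00039). The desmin gene desmb went from 16.7, 17.9 and 17.4 FPKM to 44.9, 87.3 and 89.5 FPKM (log2 1.97 ± 0.26 SE, limma adjusted p = 0.00195). Actc1a went from 4.25, 8.44 and 7.43 FPKM to 22.9, 36.5 and 36.5 FPKM (log2 2.11 ± 0.28 SE, limma adjusted p = 0.00186). NC-M held acta2 at 293, 206 and 308 FPKM, near IC-F (log2 1.28, limma adjusted p = 0.039, or log2 1.39, limma adjusted p = 0.0109 without NC-M 3), but actc1a at 25.2, 21.02 and 20.2 FPKM, near HT-F (log2 0.49, limma adjusted p = 0.213, or log2 0.43, limma adjusted p = 0.276 without NC-M 3). The smooth muscle myosin gene myh11a rose from 33.2, 27.2 and 30.6 FPKM in IC-F to 50.2, 67.25 and 60.6 FPKM in HT-F (log2 0.94, limma adjusted p = 0.00223). NC-M overlapped HT-F for myh11a, at 70.75, 69.3 and 51.8 FPKM (log2 −0.10, limma adjusted p = 0.691, or log2 −0.25, limma adjusted p = 0.19 without NC-M 3). The skeletal muscle genes ckma and acta1b were at or below 0.47 FPKM in all 6 libraries of IC-F and HT-F. The 5 markers of muscle summed to 651 to 689 FPKM in IC-F and to 1097 to 2637 FPKM in HT-F. The share of muscle in each piece of tissue, and its part in these values, was not tested.

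Matrix and vessel genes rose in part. Of 53 genes of the extracellular matrix, 25 rose and 6 fell (median log2 0.51), with 14 higher without IC-F 2, IC-F 3 or HT-F 3, and 31 higher without HT-F 1. The 25 include lamb4, which stayed under 1 FPKM in IC-F and entered the test only through HT-F. The laminin gene lamb2l went from 1.5, 1.29 and 1.07 FPKM in IC-F to 4.30, 5.41 and 6.56 FPKM in HT-F (log2 1.48 ± 0.17 SE, limma adjusted p = 0.00116). The membrane metalloprotease gene mmp15b went from 32.5, 28.7 and 27.4 FPKM to 8.34, 11.1 and 7.23 FPKM (log2 −1.64 ± 0.16 SE, limma adjusted p = 0.000659). Of 15 endothelial genes, 6 rose and 2 fell, with 3 higher without HT-F 2, IC-F 2 or IC-F 3. The diaphragm gene plvapa of leaky capillaries went from 20.8, 23.3 and 20.6 FPKM to 40.5, 45.9 and 38.4 FPKM (log2 0.91 ± 0.10 SE, limma adjusted p = 0.000878) and stood at 23.9, 21.9 and 23.6 FPKM in NC-M (log2 0.82, limma adjusted p = 0.0171, or log2 0.83, limma adjusted p = 0.000945 without NC-M 3). The receptor gene tie1 of the vessel lining went from 10.6, 8.79 and 8.84 FPKM to 5.01, 2.71 and 2.90 FPKM (log2 −1.23 ± 0.21 SE, limma adjusted p = 0.00448). Of 18 genes of cell junctions, 7 rose and 3 fell. The tight junction scaffold gene tjp1b went from 59.0, 64.6 and 62.7 FPKM to 24.3, 25.98 and 25.7 FPKM (log2 −1.26 ± 0.072 SE, limma adjusted p = 0.000156), and its NC-M libraries were lower still at 15.6, 15.8 and 23.5 FPKM.

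Blood and immune cell genes were low. Of 10 tested myeloid genes 3 rose and 3 fell, and of 4 lymphocyte genes 0 rose and 2 fell by limma (0 and 2 at an unadjusted p under 0.05, and 0 fell without IC-F 1). The 2 were jak3 and tcf7. Jak3, and irf8 among the myeloid falls, stayed under 1 FPKM in HT-F and entered the test only through IC-F. Their calls are therefore no separate support. Without IC-F 1, jak3 was not tested and tcf7 did not pass (log2 −0.41, limma adjusted p = 0.0795). The macrophage gene marco and the lymphocyte genes cd8a, cd79a and rag1 stayed at or below 0.95 FPKM in all 6 libraries. Ptprc, the leukocyte marker CD45, went from 5.26, 4.91 and 5.26 FPKM in IC-F to 7.86, 10.4 and 6.72 FPKM in HT-F (log2 0.58 ± 0.16 SE, limma adjusted p = 0.0245). The ptprc call ended without any 1 of the IC-F libraries (log2 0.56 to 0.60) and in the fit that also held NC-M (limma adjusted p = 0.0911). NC-M stood above both groups at 21.1, 25.99 and 14.9 FPKM (log2 −1.20, limma adjusted p = 0.0255, or log2 −1.41, limma adjusted p = 0.000778 without NC-M 3). Of 29 interferon and JAK-STAT genes, 9 rose and 6 fell (13 and 7 without HT-F 1), of 7 complement genes 2 rose and 2 fell, and of 8 red blood cell genes 2 rose and 1 fell, shares near those of all genes. Red blood cell genes changed balance without HT-F 2, to 1 higher and 2 lower. Jak3 is also among the 6 interferon and JAK-STAT falls. The red blood cell fall, sptb, likewise entered the test only through IC-F. Rsad2, an antiviral enzyme, went from 6.23, 5.46 and 6.37 FPKM to 1.90, 1.29 and 1.23 FPKM (log2 −1.51 ± 0.15 SE, limma adjusted p = 0.000694).

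Genes of cell division and DNA repair rose more often than they fell. Of 82 cell cycle and replication genes, 37 rose and 14 fell (median log2 0.26), and of 33 DNA repair genes 16 rose and 5 fell. Cdk9, a kinase that releases paused RNA polymerase, went from 40.1, 34.0 and 36.6 FPKM in IC-F to 104.6, 104 and 98.0 FPKM in HT-F (log2 1.45 ± 0.082 SE, limma adjusted p = 0.000156). Pola2, a subunit of the replication primase complex, went from 19.2, 16.3 and 18.4 FPKM to 35.4, 34.6 and 32.7 FPKM (log2 0.90 ± 0.089 SE, limma adjusted p = 0.000707). The clamp loader gene rfc4 fell from 193, 196 and 191 FPKM to 107, 91.4 and 82.7 FPKM (log2 −1.04 ± 0.10 SE, limma adjusted p = 0.000695). Of 23 genes of the DNA damage response and apoptosis, 10 rose and 3 fell (12 and 5 without HT-F 1), with 6 higher without IC-F 2 or IC-F 3. Gadd45ga, a stress gene that slows the cell cycle, went from 5.16, 3.65 and 4.22 FPKM to 15.3, 29.2 and 37.7 FPKM (log2 2.33 ± 0.32 SE, limma adjusted p = 0.00214) and stood at 4.61, 3.46 and 7.70 FPKM in NC-M (log2 2.15, limma adjusted p = 0.0199, or log2 2.42, limma adjusted p = 0.00123 without NC-M 3). Apaf1 of the apoptosome went from 9.22, 9.00 and 9.58 FPKM to 4.17, 2.98 and 3.60 FPKM (log2 −1.17 ± 0.13 SE, limma adjusted p = 0.00095).

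Lists for chromatin, signalling and transport had 15.2 to 26.4% of genes higher and 15.2 to 28.6% lower. Of 87 chromatin and DNA methylation genes, 23 rose and 17 fell, and the balance turned after median-of-ratios scaling (19 and 25) and without HT-F 1 (24 and 25). The 23 include mettl3, which was listed at 0 in all IC-F libraries. Ezh2, which writes a silencing histone mark, went from 117, 116 and 120.3 FPKM in IC-F to 64.8, 62.1 and 64.5 FPKM in HT-F (log2 −0.87 ± 0.06 SE, limma adjusted p = 0.000248), with 16.1, 17.8 and 56.9 FPKM in NC-M, where NC-M 1 and 2 were far below HT-F. Its call ended in the fit that also held NC-M (limma adjusted p = 0.152). Of 33 genes of TGF-beta, BMP and activin signalling, 5 rose and 5 fell (8 and 9 without HT-F 1, and 1 higher without any 1 of the IC-F libraries), and of 21 WNT genes 4 rose and 4 fell (7 and 4 without HT-F 1). The type I receptor gene acvr1l went from 127, 121 and 125 FPKM to 52.4, 55.8 and 49.8 FPKM (log2 −1.22 ± 0.07 SE, limma adjusted p = 0.000159). The WNT receptor gene fzd3a went from 73.3, 71.7 and 72.8 FPKM to 23.5, 23.3 and 26.2 FPKM (log2 −1.54 ± 0.074 SE, limma adjusted p = 0.000109). Of 42 ion and water transport genes, 10 rose and 12 fell (14 and 12 without HT-F 1). The potassium channel gene kcnn1a went from 49.96, 48.3 and 50.3 FPKM to 13.2, 11.4 and 10.6 FPKM (log2 −1.99 ± 0.10 SE, limma adjusted p = 0.000109).

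The largest changes were picked from 620 higher and 546 lower genes with a symbol. These genes passed, changed by at least 1 on the log2 scale and did not overlap between groups. They also averaged 5 FPKM or more in the higher group, and none was listed at 0 in any of the 6 libraries. The number of tested genes with a symbol is not given, so these counts carry no share. Of all 21100 tested genes, 1678 higher and 2046 lower ones passed with a log2 change of at least 1. The largest rise was that of zgc_114181, from 3.80, 3.52 and 2.91 FPKM in IC-F to 37.7, 542 and 994 FPKM in HT-F (log2 5.97 ± 1.15 SE, limma adjusted p = 0.00709). Its HT-F libraries were spread widely with HT-F 1 lowest, and NC-M was spread too, at 0, 32.8 and 104.5 FPKM. The transglutaminase gene tgm8 went from 2.97, 2.36 and 4.29 FPKM to 96.4, 169 and 141 FPKM (log2 5.01 ± 0.25 SE, limma adjusted p = 0.000119), with NC-M at 193, 167 and 113 FPKM, so that both 28-day groups were high. The sodium channel gene scn4ab was low at day 0 and higher in both 28-day groups, from 0.23, 0.31 and 0.18 FPKM to 13.2, 11.8 and 7.62 FPKM (log2 3.23 ± 0.21 SE, limma adjusted p = 0.000208) with 4.47, 24.1 and 10.4 FPKM in NC-M. Cholecystokinin, ccka, a gut and brain peptide, went from 0.34, 0.40 and 0.49 FPKM to 7.64, 14.7 and 18.1 FPKM (log2 3.29 ± 0.30 SE, limma adjusted p = 0.00052), and NC-M lay between at 2.85, 2.38 and 4.48 FPKM (log2 1.73, limma adjusted p = 0.0238, or log2 1.93, limma adjusted p = 0.0022 without NC-M 3). B4galnt4a, a glycosyltransferase, went from 0.64, 0.47 and 0.09 FPKM to 12.6, 15.4 and 12.8 FPKM (log2 3.40 ± 0.19 SE, limma adjusted p = 0.000147), above NC-M at 3.36, 4.04 and 0.23 FPKM (log2 2.28, limma adjusted p = 0.0332, or log2 1.63, limma adjusted p = 0.000711 without NC-M 3). Scn4ab, ccka and b4galnt4a stayed under 1 FPKM in IC-F, so they entered the test only through HT-F, where they are high. Their p-values against IC-F are therefore no separate support. The phospholipase C gene plcb2 went from 1.72, 1.40 and 1.28 FPKM to 3.25, 55.9 and 67.1 FPKM (log2 3.37 ± 1.04 SE, limma adjusted p = 0.0359), with HT-F 1 near IC-F, and its call ended without HT-F 2, HT-F 3 or any 1 of the IC-F libraries (log2 2.66 to 3.44). The other rises were rspry1, fam107b, wu_fb55g09, zgc_136858, g0s2, igfbp1a, egln3, bhlhe40 and dusp1, from log2 2.96 to log2 3.75.

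Of the 15 largest falls, 7 were the mitochondrial genes COX2, ND2, ND3, ND4, ND4L, ND5 and ND6. The other 8 were nuclear, and for all but ajm1 the NC-M libraries also lay below every IC-F library. Palm1a, a paralemmin, which anchors in the plasma membrane, went from 141, 148 and 156 FPKM in IC-F to 2.94, 5.44 and 4.61 FPKM in HT-F (log2 −4.84 ± 0.18 SE, limma adjusted p = 6.95e-05) and stood at 9.47, 6.74 and 1.58 FPKM in NC-M. The cytokine receptor kinase gene jak3 went from 17.2, 14.4 and 22.5 FPKM to 0.45, 0.35 and 0.50 FPKM (log2 −3.71 ± 0.18 SE, limma adjusted p = 0.000108), with 1.12, 1.09 and 1.01 FPKM in NC-M. Nmnat2, an enzyme of NAD synthesis best known in neurons, went from 7.90, 8.77 and 8.74 FPKM to 0.15, 0.06 and 0.10 FPKM (log2 −3.10 ± 0.12 SE, limma adjusted p = 6.95e-05), with 0.04, 0.20 and 0.26 FPKM in NC-M. Both 28-day groups were far below day 0 for these genes. HT-F against NC-M gave log2 −0.18 for palm1a (limma adjusted p = 0.794), or log2 −0.79 (limma adjusted p = 0.0227) without NC-M 3. It gave log2 −0.53 for jak3 (limma adjusted p = 0.0814), or log2 −0.56 (limma adjusted p = 0.0487) without NC-M 3. Nmnat2 did not pass (log2 −0.077, limma adjusted p = 0.746, or log2 −0.019, limma adjusted p = 0.929 without NC-M 3). Pard3ab, a polarity scaffold, went from 421, 427 and 431 FPKM to 130.3, 42.6 and 33.6 FPKM (log2 −2.87 ± 0.48 SE, limma adjusted p = 0.00412), with HT-F 1 the highest of its group. Lrit1a, ngef and haus3 changed by log2 −3.34, −2.80 and −2.83. Ajm1, of apical cell junctions, differed from these. It went from 5.88, 11.7 and 11.1 FPKM to 0.01, 0.04 and 0.06 FPKM (log2 −3.29 ± 0.25 SE, limma adjusted p = 0.000327), while NC-M stood at 18.6, 6.5 and 0.13 FPKM, so that NC-M 1 and 2 were like IC-F and NC-M 3 like HT-F. Jak3, nmnat2 and ajm1 stayed under 1 FPKM in HT-F and entered the test only through IC-F. The same limit holds for their p-values.

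**Figure D5:**
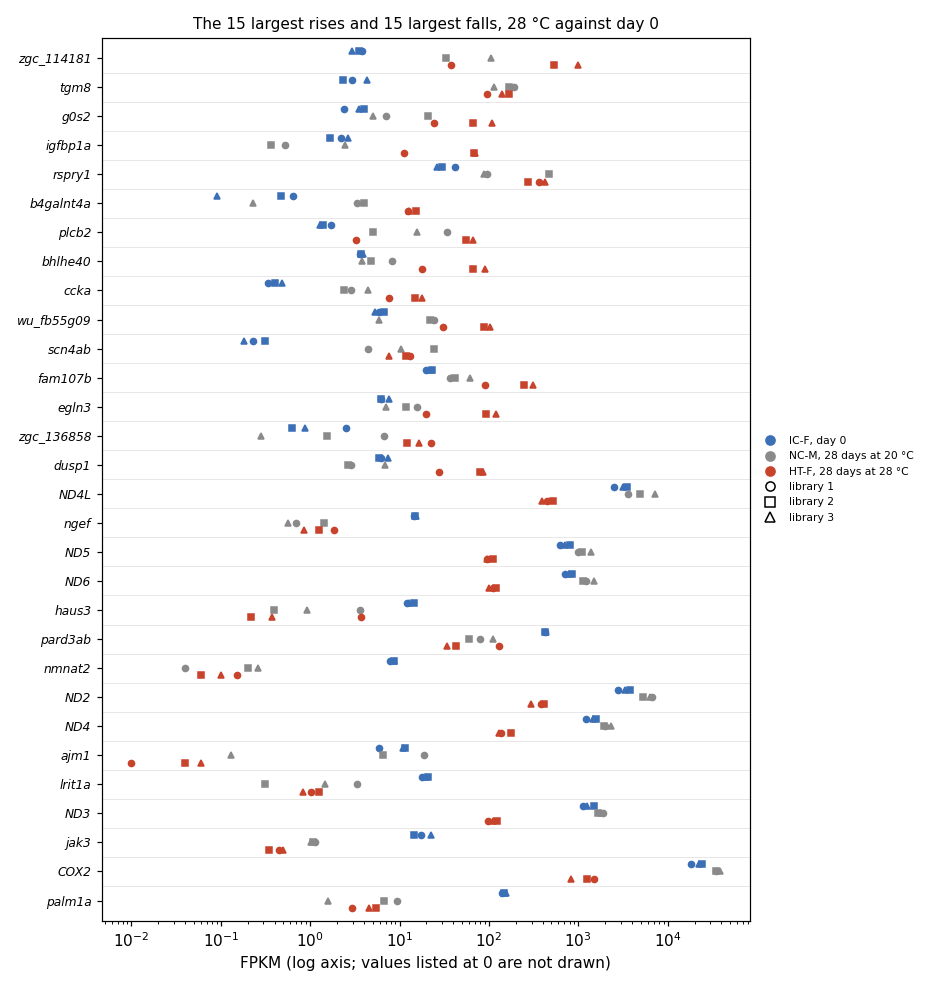
FPKM (log axis) of the 15 genes with the largest rise and the 15 with the largest fall in HT-F against IC-F, in each testis-type library (blue IC-F, grey NC-M, red HT-F, symbols for library 1, 2 and 3), ordered by log2 change. For tgm8, scn4ab, palm1a, jak3 and nmnat2 NC-M lies nearer to HT-F than to IC-F, and for igfbp1a, dusp1 and the mitochondrial genes it does not. For jak3 every NC-M library lies above every HT-F library. In igfbp1a, HT-F 1 at 11.4 FPKM lies between IC-F and the other HT-F libraries.

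Set against 28 days at 20 °C, in the fit of 9 libraries, HT-F against NC-M gave 1407 genes higher and 1025 lower of 22791, and 6400 higher and 4293 lower of 22407 without NC-M 3. The total of 2432 was 1308 without HT-F 1, 71 and 62 without HT-F 2 and HT-F 3, 319, 398 and 258 without IC-F 1, 2 and 3, and 647 and 324 without NC-M 1 and NC-M 2. Each single-gene p against NC-M above rests on the same fit. NC-M against IC-F gave 3736 higher and 4133 lower, a split that became 2793 higher and 4891 lower after median-of-ratios scaling. Its total of 7869 was 4121, 3787 and 3797 without IC-F 1, 2 and 3, 4985 without NC-M 2 and 12149 without NC-M 3. These comparisons share libraries, so their counts are not independent. HT-F and NC-M also carry different letters in their labels, and what that difference means was not tested.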

How the data were processed

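Illumina RNA-seq libraries of gonads were analysed from a table of FPKM values per gene that the authors deposited for all 18 libraries. Total RNA was extracted with Trizol, per the labels' protocols. For the aligner, the counting tool, the genome build, the strand setting and the depth, no entry was given in the sources used here, and FPKM hold no counts, so no count model was run. Of 43106 entries, 16559 carry a gene symbol, 21063 a locus number and 5484 an assembled-transcript number, and 34962 names matched the RefSeq gene table (assembly ASM1485139v1). Genes with near-identical copies were taken as listed, and the split of reads between copies is unknown.

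The comparison of HT-F with IC-F was fitted with limma 3.58.1 in R 4.3.3 (functions lmFit and contrasts.fit, then eBayes with its trend option) on log2(FPKM + 1), for genes with at least 1 FPKM in at least 3 of the 6 libraries, and p-values were adjusted over all tested genes by Benjamini-Hochberg at 0.05. A fold change on this scale understates the change of low genes. A gene can meet the filter through its higher group alone. Among others, scn4ab, ccka, b4galnt4a, sox3, sox9a, hsd20b2, igfbp2a, lamb4 and mettl3 did so through HT-F. Jak3, nmnat2, ajm1, rorca, irf8, sptb and ND1 did so through IC-F. Such a gene was not tested with a library of that group left out. HT-F against NC-M and NC-M against IC-F came from a second fit of 9 libraries. Tables were handled with Python 3.11.15, pandas 2.3.3 and numpy 2.4.6, and figures drawn with matplotlib 3.10.9. The fitting code was tested on simulated data with known changes.

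Alternatives were a pseudocount of 0.1, a filter at 5 FPKM, no filter, median-of-ratios scaling, no trend, fits with NC-M or NC-F added, the replicate number as a block, and each library left out. An added alternative, chosen after the data were seen, set library sums equal without the 13 mitochondrial genes and MSTRG.2495.

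The genes named are those with a symbol and the most extreme log2 change, 15 in each direction, that passed, changed by at least 1 on the log2 scale, did not overlap between groups, averaged at least 5 FPKM in the higher group and were listed at 0 in none of the 6 libraries of IC-F and HT-F. To these come up to 4 called members of each of 48 gene lists with the smallest adjusted p, up to 5 genes listed at 0 throughout one group on each side, and the cell type markers. COX1, CYTB, ATP8, apoa2, cebpb, ddit4, fkbp5, hsd17b3, hsf1, hspa1b, hspa5, hspa8b, hspd1, klf9, mnd1, nr3c1, sgk1, vegfaa, cebpd, errfi1a, per1b, crispld2, mov10l1, tdrd1, tdrd5, tdrd6, tdrd7a, tdrd7b, tdrd9, tdrd12, mei4, syce2, terb2, smc1b, rec114 and msh5 were named from the lists after their values were seen. Some genes that the rule names are not reported here. The libraries, lists and tests were chosen with earlier results of these data known.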

Additional observations from a re-analysis of the deposited data

How the results depend on the processing

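For HT-F against IC-F, 10617 genes were called as reported, 5438 with NC-M in the fit, 3724 with an absolute log2 change of at least 1, and 6914 (without IC-F 3) to 12357 (without HT-F 1) with a library left out. Other alternatives gave 8057 to 11913. For HT-F against NC-M, 2432 genes were called as reported, 1141 with no filter, and 62 (without HT-F 3) to 10693 (without NC-M 3) with a library left out. For NC-M against IC-F, 7869 were called as reported and 3787 (without IC-F 2) to 12149 (without NC-M 3) with a library left out. With the replicate block, the calls numbered 9040 for HT-F against IC-F, 129 for HT-F against NC-M and 6050 for NC-M against IC-F. The numbers do not mark a shared origin in the labels, and deviations of same-numbered IC-F and HT-F libraries correlated at 0.000319 to 0.0190, so the libraries are not taken as paired. Among single genes, the block ended the calls of lhcgr, ptprc and sycp1, among others.

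Of 215 named genes called in HT-F against IC-F, 159 kept the call and its direction in every alternative that tested them, the fit without trend not included. An alternative that did not test a gene was skipped for it, and the filter at 5 FPKM tested 195 of the 215. With NC-M in the fit, 53 lost the call, among them piwil2, nsdhl and atg9b. No named gene that was called changed sign in the alternatives that tested it. The balance of higher and lower calls turned for the spermatogonia, oocyte, unfolded protein, clock, chromatin, red blood cell and ion transport lists in at least 1 alternative. The cause of each was not tested. Depth is unknown, so low values, such as those under 1 FPKM, carry an error that these files cannot give. Day 0 and 28 days at 28 °C differ in time, temperature and any tank effect, which cannot be told apart.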

Other observations

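Entries listed at 0 in every library of 1 group were left out of the largest changes, but they were tested with the rest. There were 10 entries at 0 in all HT-F libraries with at least 5 FPKM in each IC-F library, of which ND1 was the only one with a gene symbol, and 14 entries with the reverse. Of these 14, mettl3, the catalytic subunit of the enzyme that methylates adenosine in mRNA, was the only one with a symbol. It was listed at 18.4, 7.50 and 8.5 FPKM in HT-F and at 0 in all IC-F and NC-M libraries. Mettl3 is among the 23 chromatin genes counted as higher, and no fold is given for it. A listed 0 can be a failed estimate, and whether reads of mettl3 were assigned to another entry was not tested.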
